A study of Mus musculus with 20 samples.

Results

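A set of 10 interferon-stimulated antiviral genes were followed across the hippocampus and the cortex of bulbectomised mice given YB-1 or HSP70. They are Oas1a, Oasl2, Ifit1, Ifit3, Ifih1, Dhx58, Ifi35, Isg15, Rsad2 and Ifitm3, 10 of the 55487 gene entries counted. The genes were listed by symbol, and each symbol matched 1 Ensembl identifier. They were chosen by function and by their levels with YB-1 and HSP70 in both tissues, known from earlier results. Their values in those contrasts are therefore a description, and test counts there are given beside those of all genes without a reading. Contrasts between the tissues and between the animals of a group are tested, with the reservation that the genes were listed with their levels in both tissues known.

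All animals were outbred NMRI mice whose olfactory bulbs had been removed, a surgical model of sporadic Alzheimer's disease. YB-1, a cold shock protein that binds DNA and RNA, was given through the nose at 6.4 µg once a day, and HSP70, the stress-inducible chaperone, as human recombinant protein at 4 µg. Dosing started on day 14 after surgery and lasted 21 days. The 4 groups were YB-1 hippocampus, HSP70 hippocampus, YB-1 cortex and HSP70 cortex, with 5 libraries each and 20 in all. Unoperated and vehicle-treated animals were not analysed here, and a difference between the agents does not say which of them moved a gene. The labels do not give the animals' age, the animal behind a library or whether tissue was pooled, and p-values measure the spread between these libraries.

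Interferons are cytokines released when a cell detects viral nucleic acid or other danger signals. Type I interferons act through the receptor subunits IFNAR1 and IFNAR2 and the kinases JAK1 and TYK2 on a complex of transcription factors that includes IRF9, which binds a short repeat called the interferon-stimulated response element in the promoters of its target genes. In the brain these genes are active at a low level in microglia, endothelium, astrocytes and neurons and are strongly induced by infection, nucleic acid released from damaged cells and ageing. The 10 genes cover the main steps of the response. Ifih1 and Dhx58 sense viral RNA, Oas1a and Oasl2 respond to double-stranded RNA, and Ifit1 and Ifit3 act on foreign RNA. Isg15 and Ifi35 modify signalling, Rsad2 makes an antiviral nucleotide, and Ifitm3 blocks viral entry.

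Promoter stretches are shown because the factor complex of the type I response binds this repeat. RefSeq windows on GRCm38.p6, 250 bases before to 50 after the annotated start, were found for 9 of the 10 genes. Dhx58 was not among them. Each was searched on both strands for the core of the element, GAAANNGAAA, whose matches can overlap each other. Of the 9 windows, 7 held a match, 77.8%, against 3.99% of the 27025 genes with a window of the same length (3.44% of all 32851 windows). No match was found in the windows of Oasl2 and Ifi35. The stretches around the matches are given below 5′ to 3′ on the gene's strand, with the bases of every match in capitals.
Isg15: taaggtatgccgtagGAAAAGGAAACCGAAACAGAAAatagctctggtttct
Oas1a: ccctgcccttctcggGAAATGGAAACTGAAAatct
Ifit1: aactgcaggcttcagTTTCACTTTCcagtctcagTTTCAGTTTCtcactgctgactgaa
Ifit3: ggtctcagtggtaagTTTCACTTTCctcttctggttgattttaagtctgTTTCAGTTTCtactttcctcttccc
Rsad2: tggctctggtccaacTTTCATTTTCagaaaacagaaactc
Ifih1: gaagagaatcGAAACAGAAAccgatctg
Ifitm3: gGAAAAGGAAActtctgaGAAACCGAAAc

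The Isg15 stretch is at chr4:156200860-156200911 on the minus strand and holds 3 overlapping matches between positions -78 and -57 from the start site. In Oas1a (chr5:120907526-120907560, minus strand) 2 overlapping matches end 5 bases before the start. Ifit1 (chr19:34640770-34640828, plus strand) and Ifit3 (chr19:34583358-34583431, plus strand) each carry 2 matches in reverse orientation, written TTTCNNTTTC on the gene's strand, and the nearer of the pair lies 76 bases before the start in Ifit1 and 113 in Ifit3. Rsad2 (chr12:26456548-26456587, minus strand) has 1 reverse match between positions -120 and -111. The matches of Ifih1 (chr2:62646206-62646233, minus strand) and Ifitm3 (chr7:141010715-141010743, minus strand) lie after the annotated start, from base 33 in Ifih1 and from base 3 in Ifitm3. A match is a description of the letters and not a measured binding site. Of the other lists, a match was held by 11 of 20 interferon genes with a window and 14 of 33 other antiviral effectors. The counts were 2 of 17 interferon receptors and signalling genes, 1 of 10 sensors and adaptors and 0 of 3 genes of ISG15 conjugation and removal.

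Libraries held 7236195 to 10166968 reads assigned to genes in the YB-1 hippocampus, 7756835 to 13053910 in the HSP70 hippocampus, 6414215 to 10763465 in the YB-1 cortex and 12283392 to 15148078 in the HSP70 cortex. Every HSP70 cortex library was deeper than every YB-1 cortex library, and whatever set the depth of those libraries cannot be told apart from the treatment. The labelled tissues fitted their markers: the summed level of 10 hippocampal marker genes was 859 to 1099 and 769 to 1007 CPM (reads scaled to the library's TMM-adjusted size) in the YB-1 and HSP70 hippocampus and 313 to 509 and 259 to 438 in the YB-1 and HSP70 cortex. Libraries of the hippocampus and cortex with the same treatment and replicate number deviated together from their group means, with correlations of 0.198 to 0.624 over 14616 genes, and are taken below as 2 tissues of 1 animal. YB-1 hippocampus replicate 1 is the exception in that it correlated more with cortex replicate 5 (0.341) than with cortex replicate 1 (0.207).

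Coverage of the members differed widely. Ifitm3 had 541 to 2253 reads in a library and Oasl2 216 to 1560, whereas Rsad2 had 0 to 54 and Ifit1 10 to 192. All 10 passed the filter on low counts in every comparison. A pair of members has close copies: 57.6% of the 50-base windows of the Oas1a transcript also occur in Oas1g, and 51.2% of those of Ifit3 in Ifit3b. Reads of these pairs may have been split or lost in counting, so both members are uncertain. Windows found in any other gene made up 10.02% for Ifitm3, 7.14% for Ifit1 and at most 3.96% for the other 6 members. Oas1g had at most 37 reads in a library and Ifit3b at most 139.

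Levels per kilobase of exon ranked the members over a wide range. Ifitm3 was the highest, with a median over the 20 libraries of 167 CPM per kilobase (range 93.96 to 299.7), and did not overlap any other member. Isg15 and Ifit3 followed at 24.5 and 20.8, with ranges that overlapped. Oasl2, Ifi35 and Oas1a had medians of 8.85, 6.10 and 5.62 CPM per kilobase and overlapped each other. Ifit1 and Dhx58 were at 2.21 and 1.66, and the lowest were Ifih1 at 0.682 and Rsad2 at 0.490. The range of each of these overlapped that of its neighbour in the order.

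With YB-1, the mean level of all 10 genes was above that with HSP70 in both tissues. The median of the 10 log2 fold changes, YB-1 over HSP70, was 0.84 in the hippocampus and 0.54 in the cortex, beside medians of -0.0030 and 0.0050 over the 13723 and 14114 genes tested. These contrasts chose the genes, so nothing is inferred from their direction. In edgeR's quasi-likelihood test 0 of 10 members had an adjusted p under 0.05 in the hippocampus and 0 of 10 in the cortex, where 0% of all genes passed in either tissue. The members' values by library follow in the order of their roles, with replicates 1 to 5 listed in turn.

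**Figure D1:**
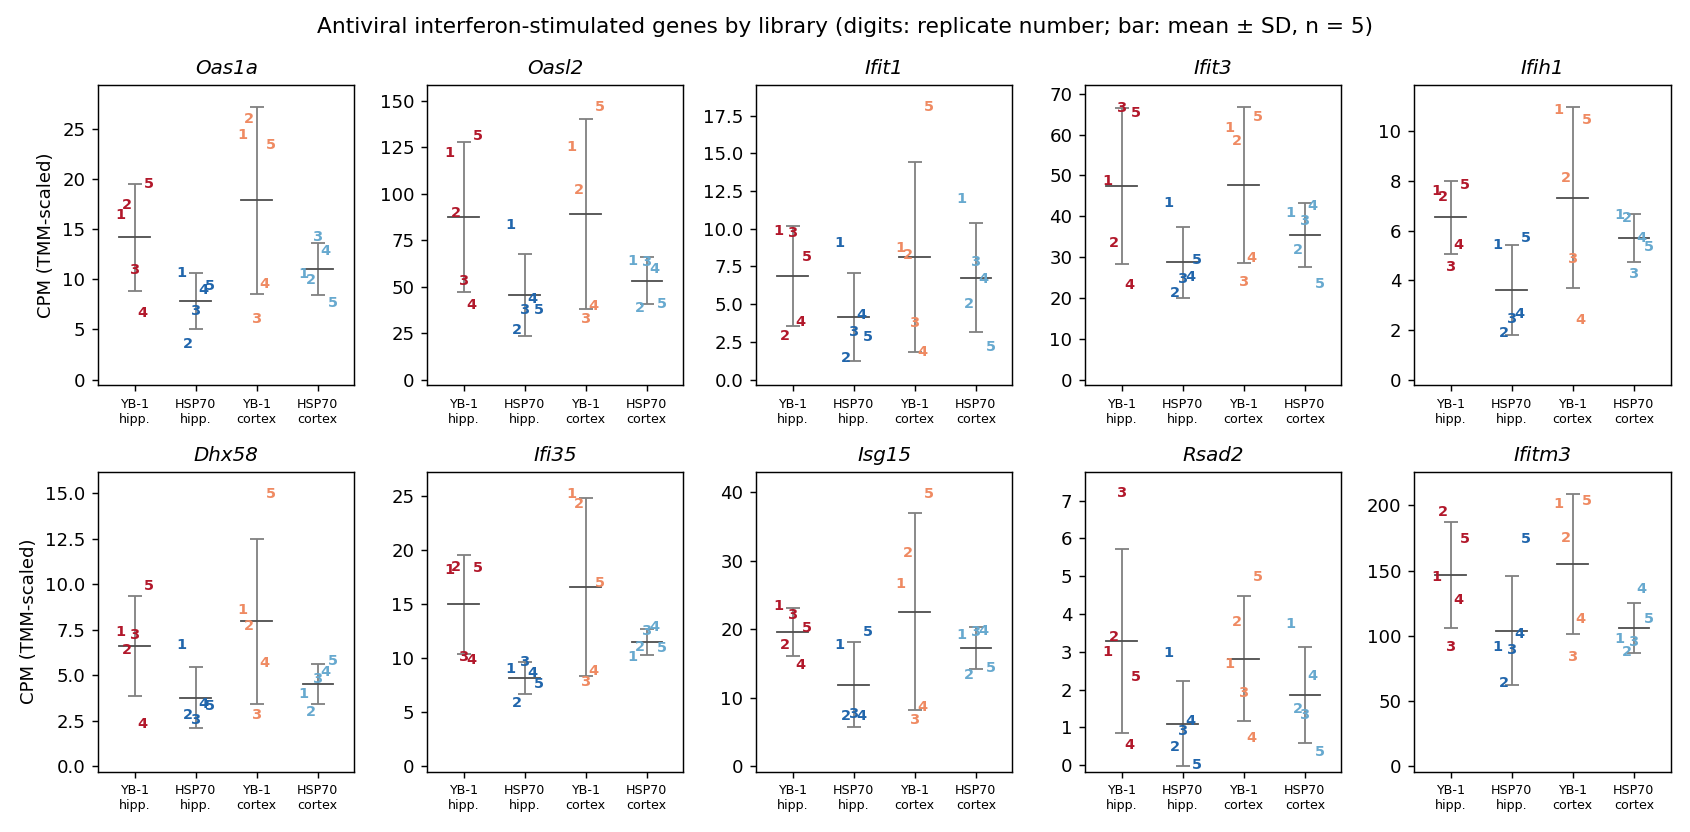
CPM (y axis) of the 10 genes in every library, by treatment and tissue (x axis), with each library drawn as its replicate number and bars giving the mean ± SD of 5 libraries. In the YB-1 cortex, replicates 1, 2 and 5 lie above replicates 3 and 4 for every gene, and only Ifi35 in the hippocampus has all YB-1 libraries above all HSP70 libraries.

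Of the RNA sensors, Ifih1 encodes MDA5, which recognises long double-stranded RNA. In the hippocampus Ifih1 stood at 7.58, 7.36, 4.53, 5.41 and 7.83 CPM with YB-1, against 5.44, 1.88, 2.44, 2.63 and 5.70 CPM with HSP70. Replicates 1, 2 and 5 of the YB-1 group lay above every HSP70 library, and the groups overlapped. The fit gave Ifih1 a log2 fold change of 0.87 ± 0.33, where ± marks the SE. Cortical values were 10.9, 8.13, 4.84, 2.38 and 10.5 CPM with YB-1, against 6.64, 6.53, 4.28, 5.69 and 5.36 CPM with HSP70. Here the YB-1 libraries straddled the HSP70 libraries, with 3 above all of them and replicate 4 below, and the log2 fold change was 0.38 ± 0.31.

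Dhx58 encodes LGP2, a relative of MDA5 without signalling domains that modulates it. In the hippocampus its level was 7.37, 6.40, 7.19, 2.30 and 9.88 CPM with YB-1, against 6.68, 2.83, 2.54, 3.43 and 3.30 CPM with HSP70. The lowest library of all 10 was replicate 4 of the YB-1 group, although 3 of the other YB-1 libraries exceeded all of the HSP70 group. The log2 fold change was 0.82 ± 0.36 in the hippocampus and 0.81 ± 0.34 in the cortex. The cortical libraries were at 8.56, 7.72, 2.82, 5.68 and 14.97 CPM with YB-1, against 3.94, 2.97, 4.81, 5.16 and 5.80 CPM with HSP70. Replicate 5 of the YB-1 cortex was the highest of the 20 libraries.

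Oas1a encodes an oligoadenylate synthetase, which senses double-stranded RNA and makes the messenger that activates RNase L. Hippocampal levels were 16.4, 17.4, 10.9, 6.62 and 19.6 CPM with YB-1, against 10.7, 3.53, 6.82, 8.97 and 9.30 CPM with HSP70. All YB-1 libraries other than replicate 4 were above the HSP70 group. In the cortex they were 24.4, 26.0, 6.05, 9.53 and 23.4 CPM with YB-1, against 10.5, 9.91, 14.2, 12.8 and 7.68 CPM with HSP70. The YB-1 cortex split into replicates 1, 2 and 5, above every HSP70 library, and replicates 3 and 4, below the HSP70 median. The log2 fold changes were 0.85 ± 0.32 and 0.70 ± 0.34 in the hippocampus and cortex.

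Oasl2 encodes an oligoadenylate synthetase-like protein with ubiquitin-like domains. Its hippocampal values were 122, 89.8, 53.2, 40.3 and 131 CPM with YB-1, against 83.4, 26.5, 37.4, 43.2 and 37.4 CPM with HSP70. In the cortex it was measured at 125, 102, 32.5, 39.6 and 147 CPM with YB-1, against 63.8, 38.3, 63.4, 59.6 and 40.8 CPM with HSP70. In both tissues replicates 1, 2 and 5 of the YB-1 group exceeded every HSP70 library, and replicates 3 and 4 lay within the HSP70 range or, for replicate 3 of the cortex, below it. The log2 fold change was 0.94 ± 0.37 in the hippocampus and 0.75 ± 0.41 in the cortex.

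Ifit1 encodes a protein that binds RNA with an incompletely methylated cap and blocks its translation. Hippocampal libraries held 9.83, 2.90, 9.72, 3.79 and 8.11 CPM with YB-1, against 9.06, 1.41, 3.15, 4.30 and 2.85 CPM with HSP70. The HSP70 group was led by replicate 1, which was within the upper YB-1 range. Cortical libraries held 8.74, 8.26, 3.73, 1.83 and 18.1 CPM with YB-1, against 11.97, 5.04, 7.82, 6.68 and 2.17 CPM with HSP70. Only replicate 5 of the YB-1 cortex was above every HSP70 library. The log2 fold change was 0.71 ± 0.45 in the hippocampus and 0.29 ± 0.55 in the cortex, and the cortical value was -0.24 without YB-1 replicate 5.

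Ifit3, of the same family, encodes a protein that in human cells binds IFIT1 and stabilises it. In the hippocampus Ifit3 was at 48.6, 33.6, 66.4, 23.1 and 65.2 CPM with YB-1, against 43.3, 21.3, 24.6, 25.1 and 29.3 CPM with HSP70. Replicates 3 and 5 of the YB-1 group were the highest, and replicates 2 and 4 lay within the HSP70 range. In the cortex Ifit3 was at 61.6, 58.4, 23.9, 29.9 and 64.4 CPM with YB-1, against 40.7, 31.6, 38.9, 42.6 and 23.5 CPM with HSP70. Replicate 3 was thus among the highest YB-1 libraries in the hippocampus and the lowest in the cortex. The log2 fold changes were 0.72 ± 0.27 in the hippocampus and 0.43 ± 0.26 in the cortex.

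Isg15 encodes a ubiquitin-like protein that is joined to other proteins during the response. Its hippocampal levels were 23.4, 17.7, 22.1, 14.7 and 20.1 CPM with YB-1, against 17.6, 7.42, 7.63, 7.29 and 19.7 CPM with HSP70. The HSP70 group fell into replicates 1 and 5, within the YB-1 range, and 3 libraries below every YB-1 library. Its cortical levels were 26.6, 31.1, 6.76, 8.62 and 39.8 CPM with YB-1, against 19.2, 13.4, 19.6, 19.7 and 14.4 CPM with HSP70. The YB-1 cortex enclosed the whole HSP70 range from both sides. The log2 fold change was 0.73 ± 0.29 in the hippocampus and 0.39 ± 0.42 in the cortex.

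Ifi35 encodes an interferon-induced protein that binds Nmi. In the hippocampus Ifi35 had 18.2, 18.5, 10.1, 9.87 and 18.4 CPM with YB-1, against 8.97, 5.89, 9.66, 8.61 and 7.65 CPM with HSP70. Ifi35 was the 1 member of the 10 whose hippocampal groups did not overlap, and 0.175% of all genes tested had every YB-1 library above every HSP70 library. The cortex had 25.2, 24.2, 7.77, 8.80 and 16.9 CPM with YB-1, against 10.1, 11.1, 12.6, 12.9 and 10.9 CPM with HSP70, and there the groups overlapped. The log2 fold changes were 0.88 ± 0.24 and 0.53 ± 0.28 in the hippocampus and cortex.

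Rsad2 encodes viperin, a radical enzyme that makes an antiviral nucleotide. Hippocampal Rsad2 reached 2.99, 3.38, 7.19, 0.541 and 2.33 CPM with YB-1, against 2.96, 0.471, 0.916, 1.17 and 0 CPM with HSP70. Replicate 3 of the YB-1 group was the highest of all 20 libraries, and no read was counted in HSP70 replicate 5, which allows up to 0.382 CPM of total reads (3 reads, counting error only). Cortical Rsad2 reached 2.67, 3.79, 1.92, 0.733 and 4.99 CPM with YB-1, against 3.74, 1.49, 1.34, 2.35 and 0.362 CPM with HSP70, in ranges that overlapped. Its log2 fold changes, 1.50 ± 0.69 and 0.62 ± 0.50 in the hippocampus and cortex, had the largest SE of the members in the hippocampus.

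Ifitm3 encodes a membrane protein of endosomes that hinders viral entry. Its hippocampal libraries were at 145, 195, 91.3, 127 and 175 CPM with YB-1, against 91.6, 63.7, 89.3, 102 and 174 CPM with HSP70. HSP70 replicate 5 lay within the upper YB-1 range and YB-1 replicate 3 within the lower HSP70 range. Its cortical libraries were at 201, 175, 83.6, 113 and 203 CPM with YB-1, against 97.8, 87.7, 95.4, 136 and 113 CPM with HSP70. Replicates 1, 2 and 5 of the YB-1 cortex were above the HSP70 group and replicate 3 was below it. The log2 fold change was 0.50 ± 0.25 in the hippocampus and 0.55 ± 0.21 in the cortex.

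**Figure D2:**
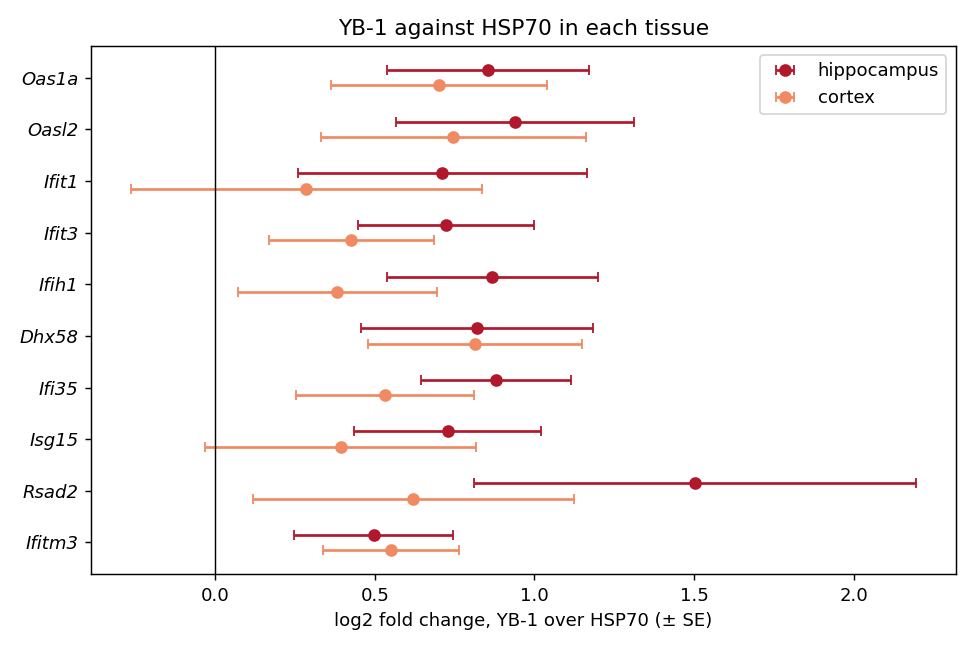
Log2 fold change, YB-1 over HSP70, with its SE (x axis) for each gene (y axis) in the hippocampus and the cortex, from edgeR's quasi-likelihood fit. The hippocampal values run from 0.50 for Ifitm3 to 1.50 for Rsad2 and the cortical values from 0.29 for Ifit1 to 0.81 for Dhx58.

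At an unadjusted p under 0.05 edgeR counted 8 of 10 members in the hippocampus, where 2.4% of all genes did (1.41% with a higher level), and 2 of 10 in the cortex, where 5.48% did (3.02% with a higher level). DESeq2 counted 8 and 3 members at that level and limma-voom 10 and 4, and neither tool called a member after adjustment. As these contrasts chose the members, the counts are given without a reading. Single libraries moved many of the cortical values by over 1.5 times. Without YB-1 cortex replicate 5 the cortical log2 fold change was 0.089 for Isg15, 0.45 for Dhx58, 0.50 for Oasl2 and 0.31 for Rsad2, and without YB-1 cortex replicate 1 it was 0.20 for Ifih1 and 0.33 for Ifi35. The highest cortical values without 1 library were 0.63 for Isg15 (YB-1 replicate 3 left out), 0.59 for Ifih1 (YB-1 replicate 4), and 0.60 for Ifit1 and 1.05 for Rsad2 (HSP70 replicate 1). In the hippocampus Ifit1 reached 1.21 without HSP70 replicate 1 and Ifitm3 0.76 without HSP70 replicate 5, and Rsad2 ranged from 1.02 to 2.23 without 1 library. Of the 10 members, 8 had at least 3 of 5 YB-1 libraries above every HSP70 library in the hippocampus (6.26% of all genes) and 8 in the cortex (10.9%). In the cortex these were replicates 1, 2 and 5 for all 8 genes, whereas in the hippocampus the set of libraries differed between genes. The difference between the treatment effects of the tissues was called by edgeR for 0 of 10 members, 0 of them at an unadjusted p under 0.05, where 0% and 1.55% of all genes were. DESeq2 and limma-voom also called 0 members, 0 of them at an unadjusted p under 0.05. That difference is built from the contrasts that chose the members, so its counts are given without a reading as well.

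Markers of other cell types differed between the same libraries. The summed level of 9 markers of border macrophages and monocytes was 24.2 to 89.3 CPM with YB-1 and 12.01 to 40.8 CPM with HSP70 in the hippocampus, and 30.4 to 113 and 18.6 to 70.3 CPM with YB-1 and HSP70 in the cortex. For 11 microglial markers it was 927 to 1872 and 869 to 1587 CPM with YB-1 and HSP70 in the hippocampus and 1237 to 2508 and 1147 to 1658 CPM with YB-1 and HSP70 in the cortex. For 9 endothelial markers the ranges were 319 to 441 and 221 to 348 CPM with YB-1 and HSP70 in the hippocampus and 404 to 544 and 305 to 502 CPM with YB-1 and HSP70 in the cortex. Replicate 4 of the YB-1 hippocampus had the lowest microglial, macrophage and endothelial sums of its group and the lowest level of 7 of the 10 members. Replicate 3 of the YB-1 cortex was also the lowest of its group for 7 members. Its microglial, macrophage and endothelial sums (1416, 44.3 and 418 CPM) were above those of replicate 4 (1237, 30.4 and 404 CPM). Replicate 5 of the YB-1 cortex, the highest for 7 members, had the highest of these sums in its group (2508, 113 and 544 CPM). Replicate 2 of the HSP70 hippocampus, the lowest for 7, had the lowest in its group (869, 12.01 and 221 CPM). Replicate 1 of the HSP70 hippocampus, the highest for 6, had the highest macrophage sum (40.8 CPM). Its microglial and endothelial sums (1288 and 291 CPM) were below those of replicate 4 (1587 and 348 CPM). A list of 10 lymphocyte and plasma cell markers summed to 30.4 to 133 and 21.4 to 99.8 CPM with YB-1 and HSP70 in the hippocampus and 51.1 to 171 and 29.6 to 183 CPM with YB-1 and HSP70 in the cortex. Meningeal fibroblast markers, 9 genes, did not overlap in the hippocampus, at 147 to 167 CPM with YB-1 and 189 to 235 CPM with HSP70. Of single genes tested there, 0.299% had every YB-1 library below every HSP70 library, a share that does not apply directly to a sum. In the cortex the meningeal fibroblast sum stood at 167 to 219.6 and 142 to 234 CPM with YB-1 and HSP70. Choroid plexus markers, 8 genes, varied widely within the hippocampal groups, at 138 to 1018 CPM with YB-1 and 36.5 to 1659 CPM with HSP70, and stood at 10.3 to 47.1 and 12.3 to 158 CPM with YB-1 and HSP70 in the cortex. HSP70 hippocampus replicate 5, which had the highest choroid plexus sum, was also the highest of its group for Ifih1, Isg15 and Ifitm3. It was the lowest for Rsad2, and replicate 1, the highest for 6 members, had a choroid plexus sum of 57.1 CPM. Astrocyte, oligodendrocyte and neuron markers, 6 genes each, summed to 2198 to 3769, 3294 to 4504 and 4879 to 5641 CPM in the YB-1 hippocampus and 2544 to 3437, 3391 to 6139 and 4622 to 5563 CPM in the HSP70 hippocampus. In the cortex they summed to 1958 to 2879.8, 1604 to 2236 and 6011 to 7675 CPM with YB-1 and 2118 to 2428, 1185 to 2063 and 5274 to 6619.9 CPM with HSP70. None of the markers of these 9 lists was at 0 in 10 or more libraries. In bulk tissue, fewer cells of a type and less RNA per cell cannot be told apart, and the part of these cells in the members' levels was not tested.

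Between the tissues no member passed the test. The same libraries were known when the genes were listed, so this contrast is not independent of the choice. Averaged over both treatments, all 10 log2 fold changes, hippocampus over cortex, were negative, with a median of -0.29 beside 0.00064 over the 14616 genes tested. In edgeR's quasi-likelihood test 0 of 10 members had an adjusted p under 0.05, where 15.9% of all genes did (8.55% higher and 7.32% lower in the hippocampus). At an unadjusted p under 0.05 there were also 0 of 10 in edgeR, beside 26.8% of all genes in edgeR. DESeq2 had 0 of 10 and limma-voom 1, counts that are given without a reading. The smallest adjusted p was 0.273, for Ifih1. A miss of the threshold does not show that the levels were equal, since the SE of the 10 genes ran from 0.18 to 0.46 on the log2 scale.

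Ifit1 had the lowest log2 fold change between tissues, -0.47 ± 0.38, and was below its cortical level in 6 of 10 animals. Ifih1 had a log2 fold change of -0.42 ± 0.24 and was lower in the hippocampus of 8 of 10 animals, as were Dhx58 (-0.27 ± 0.26) and Rsad2 (-0.25 ± 0.46). At least 8 of 10 animals were lower in the hippocampus for 18.2% of all genes tested. On the same scale Oas1a was at -0.41 ± 0.25, Isg15 at -0.38 ± 0.27 and Ifi35 at -0.32 ± 0.19, each lower in 7 of 10 animals. The log2 fold changes nearest 0 belonged to Ifit3 (-0.16 ± 0.21), Oasl2 (-0.13 ± 0.30) and Ifitm3 (-0.054 ± 0.18), and that of Ifitm3 was above 0 without any 1 of 4 libraries. Leaving out 1 library gave log2 fold changes of -0.61 to -0.041 for Rsad2, -0.72 to -0.21 for Ifit1, -0.43 to -0.083 for Dhx58, -0.50 to -0.23 for Isg15, -0.26 to -0.071 for Ifit3 and -0.30 to -0.00013 for Oasl2.

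With the animal as a block the SE of all 10 genes became smaller and the call did not change. On the log2 scale Ifih1 was then at -0.41 ± 0.20 (adjusted p in edgeR = 0.156), Oas1a at -0.38 ± 0.17 (0.118) and Ifi35 at -0.28 ± 0.13 (0.123). With that block 3 of 10 members had an unadjusted p under 0.05, beside 30.7% of all genes, and 0 passed after adjustment, beside 19.8% (9.78% lower in the hippocampus). Depth differs between the cortical treatments, so the tissues were also compared within each treatment. This does not remove depth within the HSP70 animals. There the hippocampus held 7756835 to 13053910 reads and the cortex 12283392 to 15148078, so depth and tissue cannot be fully told apart. Within the YB-1 animals the log2 fold change was -0.19 ± 0.33 for Ifih1, -0.16 ± 0.33 for Ifi35 and 0.18 ± 0.53 for Rsad2. Within the HSP70 animals it was -0.66 ± 0.31, -0.49 ± 0.18 and -0.69 ± 0.67 for the same genes. Rsad2 was the 1 member whose sign differed between treatments, and no member was called within either.

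**Figure D3:**
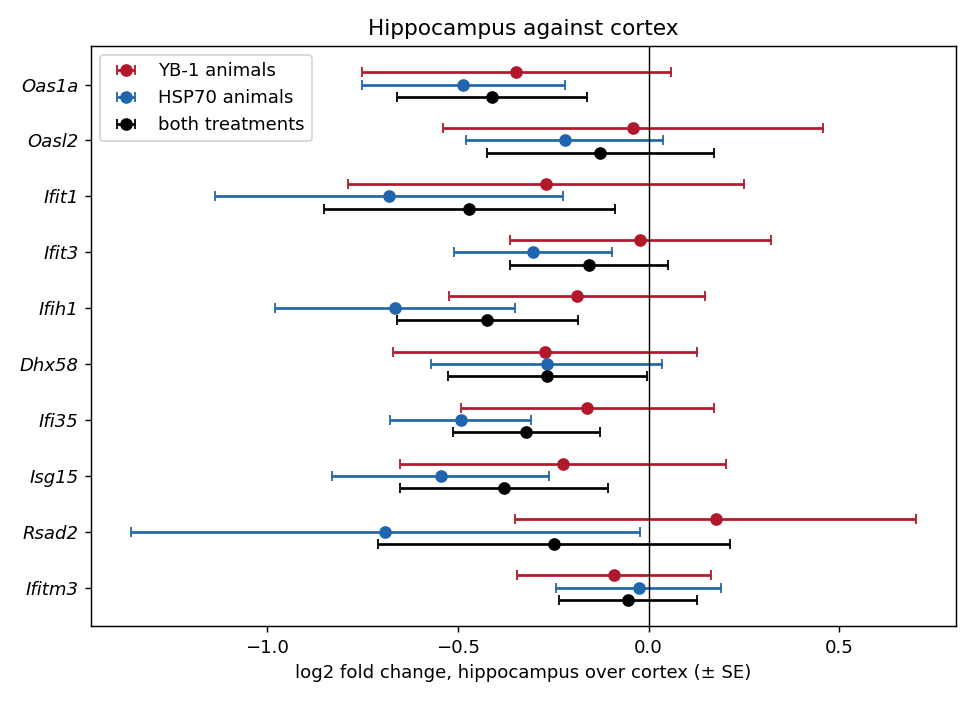
Log2 fold change, hippocampus over cortex, with its SE (x axis) for each gene (y axis), within the YB-1 animals, within the HSP70 animals and averaged over both treatments. All 10 averages are negative, from -0.47 for Ifit1 to -0.054 for Ifitm3, and none passed the test.

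The members varied more between libraries of 1 group than most genes did. The SD of log2 CPM within groups had a median of 0.662 over the 10 members and 0.358 over all 14616 genes tested. It was largest for Rsad2 (1.19) and Ifit1 (0.966) and smallest for Ifitm3 (0.458), with median reads in a library of 22, 61 and 1326. Counting error enters this SD, and the genes were not matched for level. The part of counting error was not tested. The same libraries stood high or low for most members. In the YB-1 cortex replicate 5 was the highest library for 7 of 10 genes and replicate 3 the lowest for 7. In the HSP70 hippocampus replicate 1 was the highest for 6 genes and replicate 2 the lowest for 7. In the HSP70 cortex the extremes were shared out, with replicates 1 and 4 the highest for 4 genes each and replicates 2 and 5 the lowest for 4 each.

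**Figure D4:**
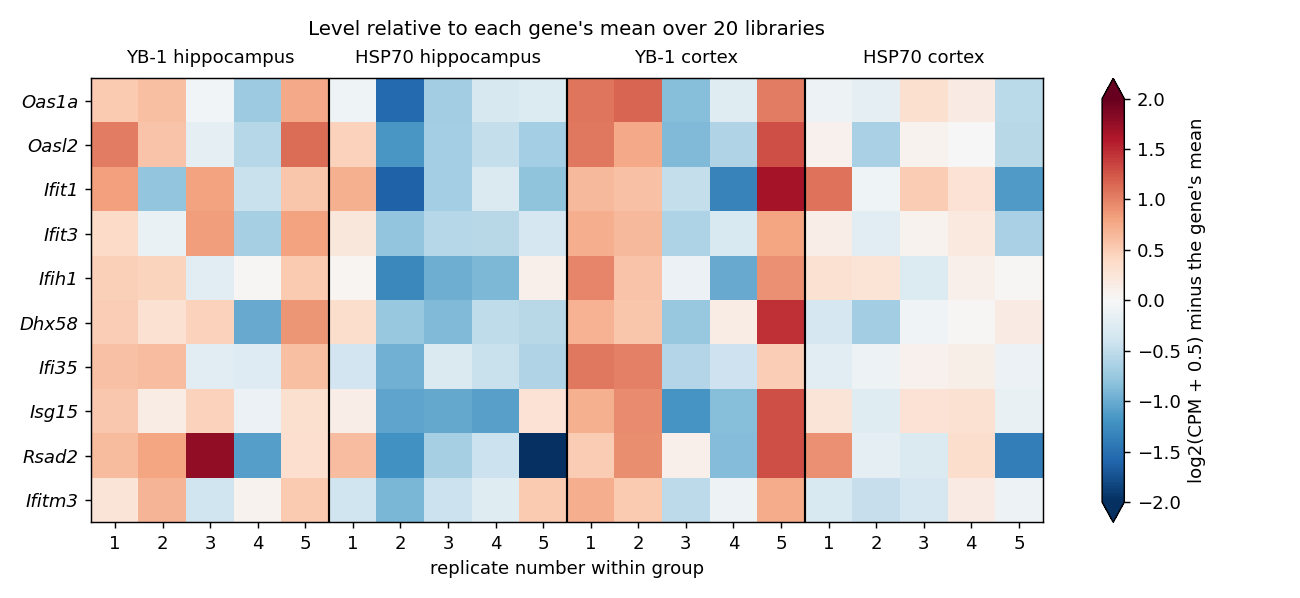
Level of each gene (rows) in each library (columns, by group and replicate number), as log2(CPM + 0.5) minus the gene's mean over the 20 libraries, red above and blue below that mean. Replicates 1, 2 and 5 of the YB-1 cortex are red for all 10 genes, and replicates 2, 3 and 4 of the HSP70 hippocampus are blue for all 10.

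Whether an animal's level in the hippocampus went with its level in the cortex was tested on deviations from the group means, which treatment does not enter. All 10 members had a positive correlation over the 10 animals, with a median r of 0.472, beside a median of 0.24 and 72.6% above 0 over all genes tested. After adjustment 0 of 10 members passed the exact permutation test, where 0% of all genes did (smallest adjusted p 0.226 over all genes). Without adjustment 4 of 10 had a p under 0.05 in this exact permutation test, beside 9.67% of all genes. The assignments within treatments allow a smallest p of 6.94e-05.

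Oasl2 had the closest relation (Pearson r = 0.842, exact permutation p = 0.00333, adjusted over 14616 genes 0.313; Spearman rho = 0.879, exact permutation p = 0.00153, adjusted 0.392). It stayed at r = 0.931 without YB-1 replicate 4 and HSP70 replicate 1, the 2 animals farthest from the hippocampal median, and was, as a description over 5 animals each, 0.951 in the YB-1 and 0.687 in the HSP70 animals. Ifitm3 had a Pearson r of 0.683 (exact permutation p = 0.0216, adjusted over 14616 genes 0.439) and a rho of 0.782 (exact permutation p = 0.0192, adjusted 0.487). Without its 2 farthest animals its r was 0.668 (unadjusted exact permutation p = 0.12, against 0.00521 for Oasl2 without its own 2). For Ifi35 (Pearson r = 0.84, exact permutation p = 0.0367, adjusted over 14616 genes 0.486; rho = 0.842, exact permutation p = 0.0567, adjusted 0.579), r was 0.161 without YB-1 replicates 3 and 4, so its relation rests on those animals. For Rsad2 (Pearson r = 0.789, exact permutation p = 0.0174, adjusted over 14616 genes 0.421; rho = 0.564, exact permutation p = 0.123, adjusted 0.661), r was 0.206 without YB-1 replicate 4 and HSP70 replicate 5.

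The other 6 members had r between 0.039 and 0.517, and none had an unadjusted p under 0.05 over the 10 animals. Isg15 was at the low end (r = 0.039, exact permutation p = 0.858, n = 10; rho = -0.030, exact permutation p = 0.92) and Ifit3 next (r = 0.131, exact permutation p = 0.767, n = 10; rho = 0.0909, exact permutation p = 0.821). Their values in YB-1 replicate 3 went opposite ways in the tissues. Isg15 was at 22.1 CPM in its hippocampus and 6.76 CPM in its cortex, and Ifit3 at 66.4 and 23.9 CPM. In HSP70 replicate 5, Isg15 was at 19.7 CPM in the hippocampus, the highest of its group, and 14.4 CPM in the cortex. The YB-1 animals fall apart in the cortex into replicates 1, 2 and 5 and replicates 3 and 4. The relation was not tested within either treatment.

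**Figure D5:**
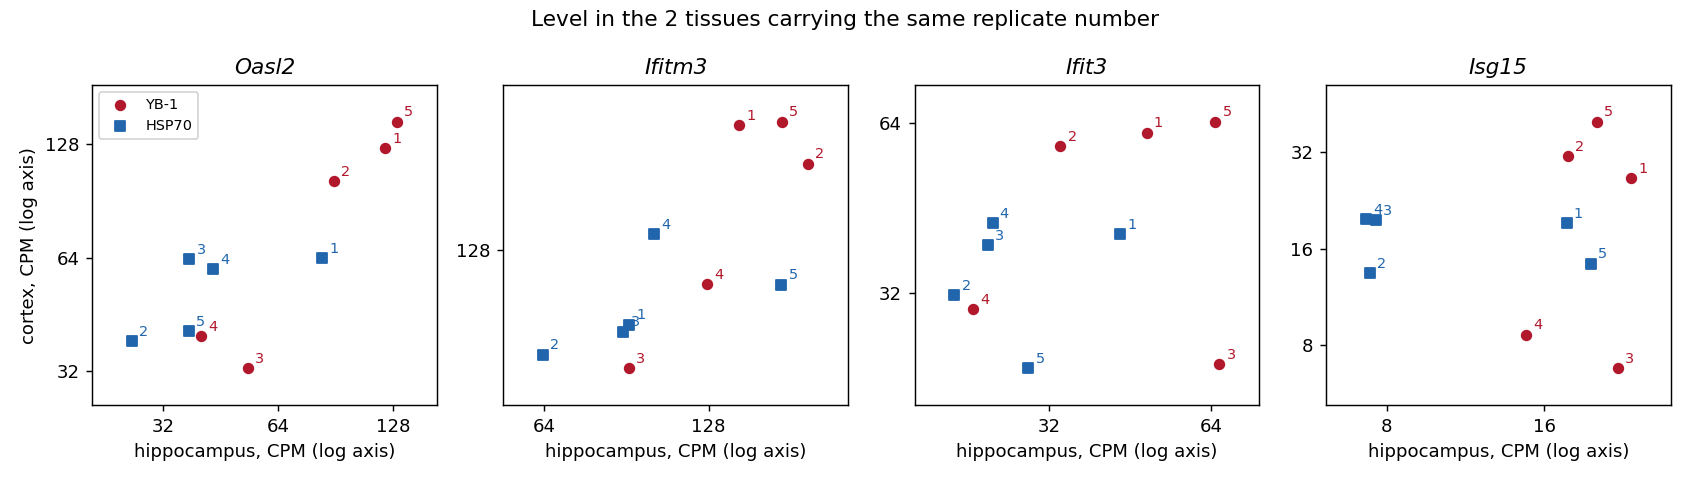
Level in the hippocampus (x axis) and in the cortex (y axis) of the animals sharing a replicate number, in CPM on log axes, for 4 genes chosen after their values were seen, a pair with a high and a pair with a low correlation. For Oasl2 replicates 1, 2 and 5 of the YB-1 group lie at the upper right, and for Ifit3 and Isg15 YB-1 replicate 3 lies at the lower right.

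Deviations of the members from their group means also ran together across libraries. Over the 20 libraries 44 of 45 pairs of members had a positive correlation, with a median r of 0.683, beside a median of 0 over all pairs of tested genes. As a description over libraries that share animals and depth, the median was 0.566 in the hippocampus and 0.771 in the cortex. The closest pair was Oas1a and Oasl2 (r = 0.907), both of the oligoadenylate synthetase family, and the most distant was Rsad2 and Ifitm3 (r = -0.088). Correlated with the mean of the other 9 members, Oasl2 had 0.945 and Oas1a 0.925, while Ifit1 had 0.757, Ifih1 0.746, Ifitm3 0.606 and Rsad2 0.49.

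Among the other tested genes, those whose deviations were most like the mean of the members over the 20 libraries were Gm12250 (r = 0.932), Parp10 (0.93), Lgals9 (0.923), Ifi47 (0.921) and Usp18 (0.919). Zbp1, Rtp4, Irgm1, Irf1 and Tap1 completed the 10 nearest, with r between 0.906 and 0.917. Ifi47 and Irgm1 encode interferon-induced GTPases, Usp18 the protease that removes ISG15, Zbp1 a sensor of left-handed nucleic acid, Irf1 a transcription factor and Tap1 a subunit of the peptide transporter of antigen presentation. Their correlation between the 2 tissues of an animal ranged from 0.369 for Usp18 to 0.918 for Irgm1.

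The inducing cytokines were barely counted. Of 20 interferon genes looked up, 19 had no read in any of the 20 libraries, including Ifnb1 and the Ifna genes. A count of 0 allows up to 0.198 to 0.468 CPM of total reads in a library (3 reads, counting error only). Reads that match several similar genes may have been lost in counting, and the limit does not cover such a loss. Ifng, the interferon of T cells and natural killer cells, was the exception, with 0 to 14 reads in a library and at least 1 in 15. Its hippocampal level was 0.107, 0.483, 0.532, 0 and 0.838 CPM with YB-1, against 0.0954, 0.118, 0, 0 and 0 CPM with HSP70, and its cortical level 0.446, 0.271, 0.403, 0 and 0.753 CPM with YB-1, against 0.415, 0.0826, 0.935, 0.0759 and 0.0725 CPM with HSP70. It did not pass the filter on low counts, and no fold change is given.

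Of 20 genes of interferon receptors and signalling, 19 were tested, and none passed in any comparison. Their median log2 fold change was 0.44 in the hippocampus and 0.38 in the cortex for YB-1 over HSP70, with 15 and 16 of 19 above 0, and -0.099 for hippocampus over cortex. Over all genes tested for YB-1 over HSP70, 6769 of 13723 in the hippocampus and 7186 of 14114 in the cortex were above 0. The list was chosen with earlier results of these data known, so its counts are a description. Irf9 averaged 71.98 ± 24.6 CPM with YB-1 and 47.8 ± 17.3 CPM with HSP70 in the hippocampus and 70.7 ± 32.7 and 44.9 ± 7.83 CPM with YB-1 and HSP70 in the cortex (SD, n = 5 each). Irf7 averaged 34.5 ± 13.7 CPM with YB-1 and 21.3 ± 9.98 CPM with HSP70 in the hippocampus and 38.9 ± 19.3 and 28.8 ± 5.88 CPM with YB-1 and HSP70 in the cortex, and Irf7 amplifies the response. Irf9 and Irf7 were named after their values were seen. The genes with the smallest p between tissues, given with their log2 fold changes, were the receptor subunit genes Ifngr2 (0.34 ± 0.15) and Ifngr1 (-0.29 ± 0.19) and the kinase gene Jak2 (-0.36 ± 0.21), whose adjusted p in edgeR was at least 0.132.

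Of 13 matched nucleic acid sensor and adaptor genes, 11 were tested between treatments in the hippocampus and 12 in the cortex, and none passed. Between tissues 13 were tested, and none passed without the animal block. Mavs, the mitochondrial adaptor on which MDA5 signals, had a log2 fold change of 0.39 ± 0.15 for hippocampus over cortex (adjusted p = 0.0711 in edgeR). With the animal as a block Mavs was called higher in the hippocampus (0.41, adjusted p = 0.029 in edgeR), in a fit that called 19.8% of all genes. The log2 fold changes of the receptor genes Tlr3 (-0.38 ± 0.25) and Tlr7 (-0.48 ± 0.35) did not pass in either fit.

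The 4 genes that join ISG15 to proteins or remove it did not pass between treatments, and their median log2 fold change was 0.34 in the hippocampus and 0.36 in cortical libraries. Between tissues Herc6, the main ligase in mice, had a log2 fold change of -0.84 ± 0.36 and Ube2l6, the conjugating enzyme, at -0.33 ± 0.20. Both missed the threshold without the block (adjusted p = 0.124 and 0.317 in edgeR). Both were called lower in the hippocampus with the animal as a block, at -0.89 and -0.32 (adjusted p = 0.0156 and 0.0333 in edgeR). With that block 9.78% of all genes were called lower. The block rests on the inferred pairing, and the genes named had the smallest p of their list between tissues. Uba7, the activating enzyme, had a log2 fold change of 0.18 ± 0.24 and did not pass in either fit.

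Of 44 other antiviral effectors, 37 were tested in the hippocampus and 39 in the cortex, and none passed between treatments. Their median log2 fold changes were 0.58 and 0.44, with 34 and 38 genes above 0, beside 6769 of 13723 and 7186 of 14114 over all genes tested. This list too was chosen with earlier results known, and its counts are a description. Between tissues 40 were tested, with a median of -0.15 and 31 below 0, beside 7295 of 14616 below 0 over all genes tested. In edgeR 1 of the 40 was called, beside 15.9% of all genes. That gene, Ifi27, was higher in the hippocampus (0.56 ± 0.17, adjusted p = 0.0215 in edgeR). Ifi27 encodes a small interferon-induced membrane protein. Samhd1, an enzyme that depletes nucleotides needed for reverse transcription, had a log2 fold change of -0.30 ± 0.16 between tissues. It passed only with the animal as a block (adjusted p = 0.224 without and 0.0344 with it, in edgeR), where 9.78% of all genes were called lower. Oas1c, a relative of Oas1a, had a log2 fold change of -0.45 ± 0.24 and did not pass in either fit.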

How the data were processed

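Poly(A) RNA of 20 samples with an integrity number of at least 8 was sequenced, per the labels. The deposited values are read counts per Ensembl gene, made on GRCm39 with Trimmomatic, STAR and featureCounts per the submitters' processing notes. The sources used here do not give versions, annotation, strand setting or the handling of multi-mapping reads, so reads of overlapping or antisense genes may be mixed. Of 12 summary entries 3 were above 0 in any library, those of assigned reads, reads outside genes and ambiguous reads. Of the reads in these 3, 2.45% to 4.58% per library lay outside genes and 4.12% to 4.58% were ambiguous. The summary entries entered neither library sizes nor tests. Symbols, exon lengths and transcripts came from GENCODE M21, on the earlier assembly, by identifier (99.4% of identifiers matched).

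Counts were fitted with edgeR 4.0.16 (TMM, filterByExpr, robust quasi-likelihood, two-sided F-test, Benjamini-Hochberg over all genes tested, threshold 0.05), treatments within each tissue and tissues over all 20 libraries. The SE is the size of the log2 fold change divided by the square root of F. Log2 CPM used a prior count of 2. The relation between tissues was tested on Pearson's r of deviations from group means, with all two-sided exact permutations of the cortical libraries within treatments. Scripts were tested on simulated data. Alternatives were DESeq2 1.42.0, limma-voom with quality weights (limma 3.58.1), RLE factors, no filter and libraries thinned to 6414215 reads. Others were all groups in 1 fit, replicate or animal blocks and leaving out each library. The tissues were paired by replicate number because all 10 same-numbered pairs correlated (0.207 to 0.394 in YB-1 and 0.198 to 0.624 in HSP70 animals). The labels do not name the animals, so this pairing is inferred, and the animal blocks and counts of animals rest on it. The same number was the best match for 4 of 5 YB-1 and 5 of 5 HSP70 hippocampal libraries, and YB-1 hippocampus replicate 1 correlated best with cortex replicate 5 (0.341, against 0.207 with its own number). The treatments do not pair (correlations of -0.283 to 0.496 among hippocampal and -0.135 to 0.167 among cortical libraries). Beside the members, the genes named are the 3 with the smallest p between tissues in each pathway list, every interferon gene with a read, and the 10 tested genes most like the members' mean. Irf9 and Irf7 were added after their values were seen, and Oas1g and Ifit3b as close copies of members. The members and gene lists were chosen with earlier results of these data known.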

Additional observations from a re-analysis of the deposited data

How the results depend on the processing

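No member was called in any comparison under any alternative run. In the cortex, where edgeR called 0 genes between treatments, no filter gave 9, DESeq2 4, limma-voom 1 and thinned libraries 1, and leaving out 1 library gave 0 to 1. Between tissues edgeR called 2320 genes, 775 within the YB-1 libraries and 1146 within the HSP70 libraries, which hold fewer samples, and 2888 with the animal as a replicate block. Between treatments the replicate block left 0 genes called in either tissue, and it changed no call of a member. Of 170 alternative values of the members in the hippocampus none changed sign, and of 170 in the cortex 1 did, that of Ifit1 (range -0.24 to 0.60 without 1 library). Between tissues 5 of 280 changed sign. Rsad2 was at 0.18 in the YB-1 libraries alone, and Ifitm3 ranged from -0.19 to 0.010 without 1 library. Correlations between tissues changed sign in 12 of 170 cases, with rho of -0.030 for Isg15, r of -0.45 for Ifit3 without the 2 farthest animals, and r of -0.036, -0.094 and -0.16 for Oas1a, Dhx58 and Isg15 in the HSP70 animals alone. Without 1 animal r ranged from -0.22 to 0.61 for Ifit3, from -0.043 to 0.55 for Dhx58 and from -0.13 to 0.18 for Isg15. The causes were not tested. Reads were fewest for Rsad2, Ifit1, Ifih1 and Dhx58, with medians of 22 to 61 reads in a library.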
